A study of Homo sapiens with 4 samples.

Results

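The insulin-like growth factor (IGF) system was examined in HGC-27 cells through 10 genes, 6 encoding the binding proteins IGFBP2 to IGFBP7, 1 encoding the ligand IGF2, and 3 encoding the receptors IGF1R, IGF2R and INSR. These genes were taken by symbol from the 25559 gene symbols of the count tables, and all 10 had enough counts to be tested among the 12967 genes that were. IGFBP3 is named by the study among the genes that fell in these same libraries, and IGFBP5 is in gene lists it drew from them, so their fall here is not independent evidence. HGC-27 is a human line of poorly differentiated gastric cancer, taken from a lymph node metastasis. RNA-seq compared 2 libraries labelled wildtype, called control here, with 2 libraries labelled RUNX3 knock-out (RUNX3 KO). The RUNX3 KO cells had been transduced with a lentivirus carrying Cas9 and a guide against RUNX3, selected with puromycin and cloned from single cells. How many clones were used, and whether libraries of a group came from separate cultures, is not given in the sources used here, so p-values measure the spread between these libraries, and what belongs to a clone cannot be told apart from what belongs to the loss of RUNX3.

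IGF ligands signal mainly through IGF1R, a receptor tyrosine kinase, and IGF2 can also activate the insulin receptor INSR. IGF2R has no kinase. It carries IGF2 and enzymes tagged with mannose 6-phosphate to the lysosome, and so removes the ligand. Secreted IGF binding proteins hold the ligands in the extracellular space, where they can block or prolong signalling, and several of them also attach to the matrix or the cell surface.

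Each library had between 11731401 and 12110876 counts on genes. The targeted gene, RUNX3, was counted 351 and 308 times in control against 225 and 185 times in RUNX3 KO libraries, so its RNA was lower (log2 difference -0.70, SE 0.0961, edgeR adjusted p = 1.43e-09) but still present in each. These counts do not measure the protein. The paper reports checking the deletion in RNA and protein, with no RUNX3 protein on an immunoblot of the knockout cells. Of 6 epithelial marker genes, KRT19 had 0 counts in every library, EPCAM at most 1 and KRT7 at most 3. KRT8 rose from 19 and 11 counts to 72 and 81 (log2 difference 2.33, edgeR adjusted p = 1.9e-13), CDH1 rose from 15 and 21 to 30 and 32 (0.77, edgeR adjusted p = 0.0238), and KRT18 had 0 and 0 counts in control and 2 and 14 in RUNX3 KO libraries. Of 3 mesenchymal marker genes, VIM fell from 57834 and 57486 counts to 33828 and 35307 (-0.75, edgeR adjusted p = 1.84e-53), FN1 fell from 115 and 95 to 15 and 11 (-3.01, edgeR adjusted p = 9.22e-20), and CDH2 had at most 3. The summed level of the epithelial markers ranged from 2.97 to 3.22 CPM (counts scaled by the TMM method to a common library size) in control and from 8.90 to 10.6 CPM in RUNX3 KO libraries. Endothelial markers summed to at most 0.339 CPM and leukocyte markers to at most 2.46 CPM in any library. In bulk RNA, fewer cells of a kind and less RNA per cell cannot be told apart, and the part of these markers in the results below was not tested. Between replicates the chi-square over genes was 1.22 (control) and 1.18 (RUNX3 KO) per degree of freedom, against 17.1 between the first libraries of the groups. An exact two-sided permutation test of 2 against 2 libraries cannot give a p below 0.333. The p-values below therefore come from edgeR's quasi-likelihood test, fitted across all tested genes and adjusted over all of them by the Benjamini-Hochberg method. A gene is said to have risen or fallen where its adjusted p was under 0.05.

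By that test, 8 of the 10 genes fell and 2 rose in RUNX3 KO cells. Over all tested genes 48.9% passed the same test, 24.4% as lower and 24.5% as higher. With DESeq2, 6 of the 10 genes were lower and 2 higher, and without RUNX3 KO replicate 1 or 2, 5 were lower and 2 higher in either case. The counts over all tested genes, 3158 lower and 3183 higher, were 1863 and 1829 with DESeq2, 1531 and 1483 without RUNX3 KO replicate 1, and 1378 and 1285 without RUNX3 KO replicate 2. Of the binding proteins, IGFBP2, IGFBP3, IGFBP4, IGFBP5 and IGFBP6 fell and IGFBP7 rose. Of the receptors, IGF1R rose while INSR and IGF2R fell, and the ligand IGF2 fell. The study selected genes by a fold change and a p-value. With a fold change of at least 2 and a p of at most 0.05, taken here as the unadjusted p of edgeR's test, 2 of the 10 genes were lower, IGFBP3 and IGFBP5, and none was higher. Over all tested genes 6.12% met these criteria, 4.01% as lower and 2.11% as higher. With a minimum of 1.5-fold in place of 2-fold, IGFBP3, IGFBP5, IGFBP6 and IGF2 were lower and IGF1R was higher, 4 and 1 of the 10 genes, against 13.4% of all tested genes, 8.58% as lower and 4.82% as higher. In each of the 10 genes the libraries of the groups did not overlap in CPM, which held for 72.7% of all tested genes, 36.4% as lower and 36.3% as higher. The median log2 fold change was -0.54 for the 10 genes and -0.0021 for all tested genes.

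Because several genes of the family fell together, the stretches upstream of their transcription start sites are shown, with that of IGF1R, which moved the other way. The RefSeq promoter table (GRCh38.p14) held an entry for 8 of the 10 genes, and IGFBP7 and IGF2 were not among them. Each sequence had a single match in GRCh37, the build called hg19 in the study, and the GRCh37 position of the 120 bases that end just before the start of the MANE Select transcript is given, written 5′ to 3′ along the gene. Capitals mark matches on either strand to a TATA box (TATAAA or TATATA) or a GC box (GGGCGG), of which the lines of IGFBP5 and IGF1R hold none.
IGFBP3 (chr7:45960872-45960991, minus strand): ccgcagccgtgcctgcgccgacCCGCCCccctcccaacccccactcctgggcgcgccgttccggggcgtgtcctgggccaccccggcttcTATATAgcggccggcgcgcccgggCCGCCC
IGFBP5 (chr2:217560273-217560392, minus strand): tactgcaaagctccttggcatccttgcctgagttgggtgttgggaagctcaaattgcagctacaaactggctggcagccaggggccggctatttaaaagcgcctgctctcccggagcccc
IGFBP6 (chr12:53491331-53491450, plus strand): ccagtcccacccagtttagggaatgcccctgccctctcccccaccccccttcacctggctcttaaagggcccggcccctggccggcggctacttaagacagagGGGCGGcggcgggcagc
IGFBP4 (chr17:38599582-38599701, plus strand): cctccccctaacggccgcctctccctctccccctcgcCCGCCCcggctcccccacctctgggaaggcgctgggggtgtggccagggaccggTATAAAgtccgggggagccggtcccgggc
IGFBP2 (chr2:217498023-217498142, plus strand): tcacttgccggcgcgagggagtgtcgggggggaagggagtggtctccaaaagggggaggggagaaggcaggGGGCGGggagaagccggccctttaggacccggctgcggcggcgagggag
IGF1R (chr15:99191648-99191767, plus strand): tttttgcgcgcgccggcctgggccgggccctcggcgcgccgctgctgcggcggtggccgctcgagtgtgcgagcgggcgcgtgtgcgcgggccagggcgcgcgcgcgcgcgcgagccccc

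The letters that RUNX proteins are known to bind, TGTGGT or TGCGGT on either strand, were searched in the whole windows of 300 bases, from 250 before to 50 after the start. They were in 0 of the 8 windows and in 19.6% of all 35116 promoters of the table. Each of the 8 genes was given by the window nearest the start of its MANE Select transcript. The shares of all promoters count every entry, alternative promoters of a gene included, so the sets are not alike. A TATA box was in 2 of the 8, from base -30 to -25 of IGFBP3 and from -29 to -24 of IGFBP4 before the start, and in 13.7% of all promoters. A GC box was in 7 of the 8, all but that of IGFBP5, and in 45% of all promoters. IGF2R alone of the 8 held CACGTG, which it had 3 times, and 7.26% of all promoters held it. GC box matches within GGGCGGGCGG and like runs overlap one another. These matches describe letters only. Distant elements were not examined here, and whether RUNX3 binds at these genes was not tested. From RUNX3 ChIP-seq and H3K27ac HiChIP in HGC-27 cells, the paper predicts IGFBP3 as a target of RUNX3 bound at distal sites.

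IGFBP3, the main carrier of IGFs in serum, had the largest fold change of the 10 genes. It lies on chromosome 7 from 45951844 to 45961473 (hg19, minus strand). Its counts were 966 and 979 in control and 307 and 311 in RUNX3 KO libraries. The 2 libraries of each group were nearly equal and the groups lay far apart. The level went from 82.4 ± 0.803 to 25.9 ± 0.100 CPM (SD, n = 2 per group), a 3.18-fold fall. Its log2 difference was -1.67 (SE 0.0648, edgeR adjusted p = 7.62e-40), and 97.4% of tested genes changed by less. IGFBP1, a gene of the same family 18584 bases from IGFBP3, had 0 counts in all 4 libraries, and a count of 0 allows up to 3.

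IGFBP5, a binding protein that also attaches to the extracellular matrix, fell by 2.15-fold. Its counts were 652 and 577 in control and 287 and 290 in RUNX3 KO libraries. Both control libraries lay well above both RUNX3 KO libraries, although control replicate 1 exceeded control replicate 2 by more than the RUNX3 KO libraries differed. The level was 52.1 ± 4.48 CPM in control and 24.2 ± 0.137 CPM in RUNX3 KO cells (SD, n = 2 per group), with a log2 difference of -1.10 (SE 0.0755, edgeR adjusted p = 2.00e-23). IGFBP5 lies on chromosome 2 from 217536828 to 217560272 (minus strand), 7668 bases from IGFBP2, which is read towards it from 217497551 to 217529159 (plus strand).

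IGFBP2, which carries IGF2 in many tumours and fetal tissues, fell less than its neighbour. It had 1319 and 1328 counts in control and 1009 and 1017 in RUNX3 KO libraries. Within each group the libraries differed by far less than the groups did. The level went from 112 ± 0.572 to 85.0 ± 0.632 CPM (SD, n = 2 per group). On the log2 scale the difference was -0.40 (SE 0.0457, edgeR adjusted p = 2.24e-12).

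IGFBP4, an inhibitor of IGF action that is cut by the protease PAPPA, had the most counts of the 10 genes. They numbered 2628 and 2562 in control and 1713 and 1827 in RUNX3 KO libraries. The groups did not overlap. IGFBP4 (chromosome 17 from 38599702 to 38613977, plus strand) fell to 149 ± 4.83 CPM from 220 ± 3.89 CPM (SD, n = 2 per group). On the log2 scale the difference was -0.57 (SE 0.0361, edgeR adjusted p = 2.94e-25).

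IGFBP6, which prefers IGF2 over IGF1, had 262 and 247 counts in control and 157 and 162 in RUNX3 KO libraries. Again both libraries of one group were above both of the other. IGFBP6 (chromosome 12 from 53491220 to 53496129, plus strand) fell to 13.4 ± 0.122 CPM from 21.6 ± 0.892 CPM (SD, n = 2 per group). The log2 difference was -0.69 (SE 0.104, edgeR adjusted p = 2.59e-08).

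IGFBP7, a secreted protein that binds IGFs weakly and is found in vessel walls and matrix, was the binding protein that rose. It had 635 and 619 counts in control and 854 and 963 in RUNX3 KO libraries. RUNX3 KO replicate 2 was the highest, and the lower RUNX3 KO library still exceeded both controls. IGFBP7 (chromosome 4 from 57896939 to 57976551, minus strand) rose from 53.1 ± 0.943 to 76.2 ± 5.48 CPM (SD, n = 2 per group). This was a log2 difference of 0.52 (SE 0.0568, edgeR adjusted p = 2.99e-13). Its end overlaps that of POLR2B on the other strand by 386 bases, and POLR2B had 3681 and 3606 counts in control and 3615 and 3678 in RUNX3 KO libraries.

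**Figure D1:**
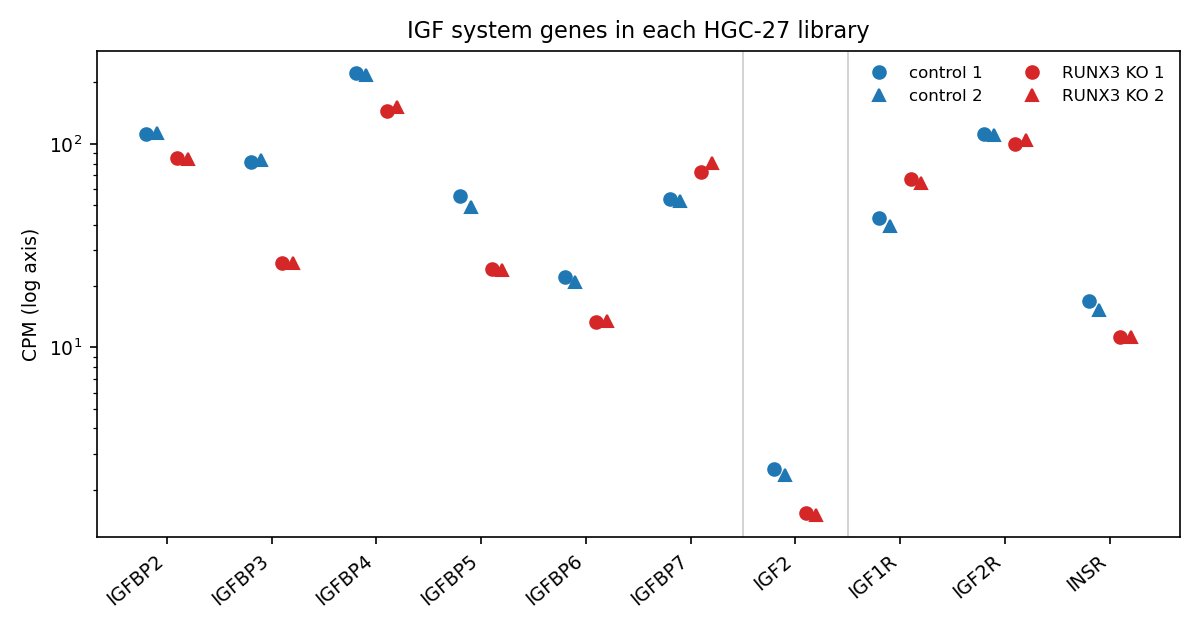
The plot shows CPM on a log axis for the 10 genes, with circles and triangles for replicates 1 and 2, blue for control and red for RUNX3 KO. Red points lie under blue ones in 8 genes and above them in IGFBP7 and IGF1R.

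Levels of different genes were compared per length, as CPM divided by the length in kilobases of the MANE Select transcript (RPKM). In control cells the order of the binding proteins was IGFBP4 at 99.7 ± 1.76, IGFBP2 at 79.3 ± 0.405, IGFBP7 at 37.2 ± 0.661, IGFBP3 at 31.5 ± 0.307, IGFBP6 at 22.8 ± 0.942 and IGFBP5 at 8.34 ± 0.718 RPKM (SD, n = 2). The receptors followed, with IGF2R at 7.92 ± 0.0744, IGF1R at 3.37 ± 0.214 and INSR at 1.70 ± 0.120 RPKM, and IGF2 was last at 0.440 ± 0.0213 RPKM. IGFBP5 and IGF2R overlapped between libraries in control cells, and all other neighbours in that order were apart. In RUNX3 KO cells IGFBP4 at 67.4 ± 2.19 and IGFBP2 at 60.1 ± 0.447 RPKM still led, but IGFBP7 at 53.4 ± 3.84 RPKM stood close behind them. IGFBP6 at 14.1 ± 0.129 RPKM was then above IGFBP3 at 9.93 ± 0.0384 RPKM. Below them IGF2R at 7.27 ± 0.218 and IGF1R at 5.38 ± 0.172 RPKM were above IGFBP5 at 3.88 ± 0.0220 RPKM. No neighbours overlapped between libraries in the RUNX3 KO order. With the union of all annotated exons as the length, chosen after seeing the data, IGFBP7 came before IGFBP2 in both groups (27.5 against 23.6 RPKM in control, 39.5 against 17.9 RPKM in RUNX3 KO), and IGF1R at 4.72 RPKM before IGF2R at 4.52 RPKM in RUNX3 KO cells.

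The summed level of the 6 binding proteins was 281 and 276 RPKM in the control libraries and 205 and 213 RPKM in the RUNX3 KO libraries, a 1.34-fold lower mean. IGFBP7 made up 13.4% and 13.3% of that sum in control and 24.7% and 26.4% in RUNX3 KO libraries. IGFBP3 went from 11.1% and 11.5% to 4.86% and 4.65%. IGFBP2 kept to between 28.1% and 29.5% in all 4 libraries. There were 0.657 and 0.632 IGFBP7 counts per IGFBP3 count in control and 2.78 and 3.10 in RUNX3 KO libraries. The shares depend on the length used. With the union of all annotated exons, IGFBP2 made up 12.3% of the sum in control and 12.4% in RUNX3 KO cells, IGFBP4 51.7% and 46.7% in place of 35.8% and 32.3%, IGFBP7 14.3% and 27.4%, and IGFBP3 9.35% and 3.94%. The summed level was then 193 and 144 RPKM, again 1.34-fold lower in RUNX3 KO cells. These shares and ratios are given without a test.

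**Figure D2:**
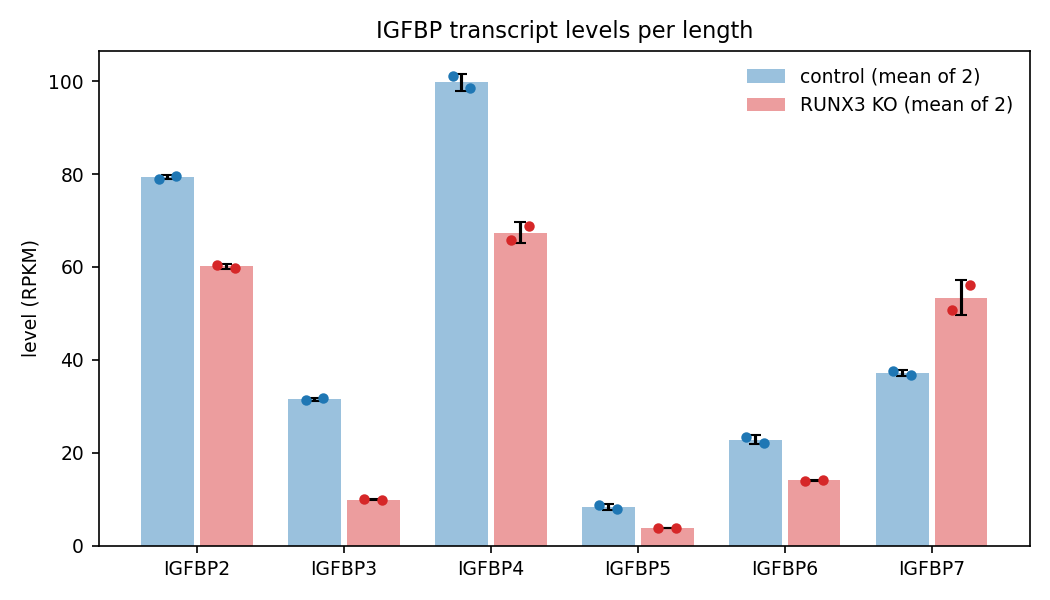
Bars give the mean RPKM of each binding protein in 2 control (blue) and 2 RUNX3 KO libraries (red), points the libraries and error bars the SD. The RUNX3 KO bar is lower for 5 genes, by the largest fold for IGFBP3 and the most RPKM for IGFBP4, and higher for IGFBP7.

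The ligand IGF2 was barely expressed. It had 30 and 28 counts in control and 18 and 18 in RUNX3 KO libraries. The groups did not overlap, but the counts were few. IGF2 (chromosome 11 from 2150342 to 2179621, minus strand) had a log2 difference of -0.70 (SE 0.296, edgeR adjusted p = 0.0432), from 2.46 ± 0.119 to 1.51 ± 0.0197 CPM (SD, n = 2 per group). This call was lost with DESeq2 (adjusted p = 0.338), with limma-voom (adjusted p = 0.0530), without a filter on low counts (adjusted p = 0.0672) and without any 1 library. Adjusted p was 0.175 and 0.104 by edgeR without control replicate 1 or 2, and 0.133 and 0.152 without RUNX3 KO replicate 1 or 2. IGF2 shares sequence with the readthrough gene INS-IGF2, listed at 0 counts in every library, and overlaps IGF2-AS on the other strand, which had at most 5 counts. Reads in the shared exons may have been left out as ambiguous, so its level is uncertain.

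Other ligand genes had few counts or none. IGF1 had at most 4 counts in a library and INS 0 in all 4. IGFALS, whose product joins IGF and IGFBP3 in a serum complex, had 0 in all 4, and the receptor relative INSRR had 1 count in 1 control library. H19, the imprinted noncoding RNA gene 124559 bases from IGF2, had 40 and 43 counts in control and 91 and 100 in RUNX3 KO libraries. H19 rose, with a log2 difference of 1.19 (SE 0.184, edgeR adjusted p = 4.52e-08), while IGF2 was lower. Of the IGF2 mRNA-binding proteins, IGF2BP1 and IGF2BP2 rose by 0.18 and 0.26 on the log2 scale and IGF2BP3 changed by -0.12.

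IGF1R, the main signalling receptor, had 509 and 465 counts in control and 795 and 774 in RUNX3 KO libraries. Both RUNX3 KO libraries were well above both controls. Its level rose from 41.3 ± 2.62 to 65.9 ± 2.1 CPM (SD, n = 2 per group). The log2 difference was 0.67 (SE 0.0622, edgeR adjusted p = 1.67e-16). IGF1R lies on chromosome 15 from 99191768 to 99507759 (plus strand), near the end of the long arm. Of the 37 tested genes nearest to it, 20 before it and 17 between it and the chromosome end, 33 were higher, 29 of them past the adjusted p, and their median log2 fold change was 0.62. IGF1R exceeded that median by 0.05, and 15 of the 37 genes had a change at least as high. The rise of IGF1R was close to the median of its neighbourhood.

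INSR fell. It had 199 and 180 counts in control and 133 and 136 in RUNX3 KO libraries. The groups did not overlap. INSR (chromosome 19 from 7112266 to 7294425, minus strand) went from 16.1 ± 1.13 to 11.3 ± 0.0311 CPM (SD, n = 2 per group). This gave a log2 difference of -0.51 (SE 0.117, edgeR adjusted p = 0.000150). Without RUNX3 KO replicate 1 or 2 the adjusted p was 0.0639 or 0.0691 by the same test. With IGF1R higher and INSR lower, there were 2.56 and 2.58 IGF1R counts per INSR count in control and 5.98 and 5.69 in RUNX3 KO libraries, a 2.27-fold higher mean.

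IGF2R, the receptor that takes IGF2 to the lysosome, had the smallest fold change of the 10 genes. Its counts were 1323 and 1305 in control and 1181 and 1255 in RUNX3 KO libraries. The groups were close but did not overlap in CPM. The level was 111 ± 1.05 CPM in control and 102 ± 3.06 CPM in RUNX3 KO cells (SD, n = 2 per group). On the log2 scale the difference was -0.12 (SE 0.0442, edgeR adjusted p = 0.0161), and 34.2% of tested genes changed by less. IGF2R lies on chromosome 6 from 160390114 to 160534539 (plus strand). Its call was lost with DESeq2 (adjusted p = 0.208), without a filter on low counts (adjusted p = 0.0611), and by edgeR without control replicate 1 (adjusted p = 0.0796), RUNX3 KO replicate 1 (adjusted p = 0.182) or RUNX3 KO replicate 2 (adjusted p = 0.0779).

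The neighbourhoods of the other genes were compared in the same way, with up to 20 tested genes on each side. Their median log2 fold changes ranged from -0.11 around IGFBP6 to 0.04 around IGF2R. Neighbours were then counted by log2 fold change alone, whether or not they passed the adjusted p. None of the 40 genes nearest to IGFBP3 was as low as IGFBP3, and none of those nearest to IGF2 as low as IGF2. Around IGFBP4 and IGFBP6, 2 genes were as low in each case, and 1 gene was as high as IGFBP7 among its 40. As many as 10 of 40 were as low as IGFBP2, with IGFBP5 among them, and 6 of 40 as low as IGFBP5. Around INSR 5 of 40 were as low, and around IGF2R 12 of 39. Of the 40 genes nearest to IGFBP2, and likewise to IGFBP5, 14 fell and 11 rose, with a median of -0.01 and a 10th percentile of -1.24. The 10th percentile was also -1.24 around IGFBP7, where 13 fell and 9 rose. On the other side of IGFBP5 from IGFBP2, TNS1 changed by -3.17 on the log2 scale (edgeR adjusted p = 9.77e-14). After subtraction of the neighbourhood median, IGFBP3 stood at -1.63, IGFBP5 at -1.10, IGF2 at -0.66, IGFBP4 at -0.60, IGFBP6 at -0.58, INSR at -0.49, IGFBP2 at -0.39, IGF2R at -0.16, IGF1R at 0.05 and IGFBP7 at 0.55.

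**Figure D3:**
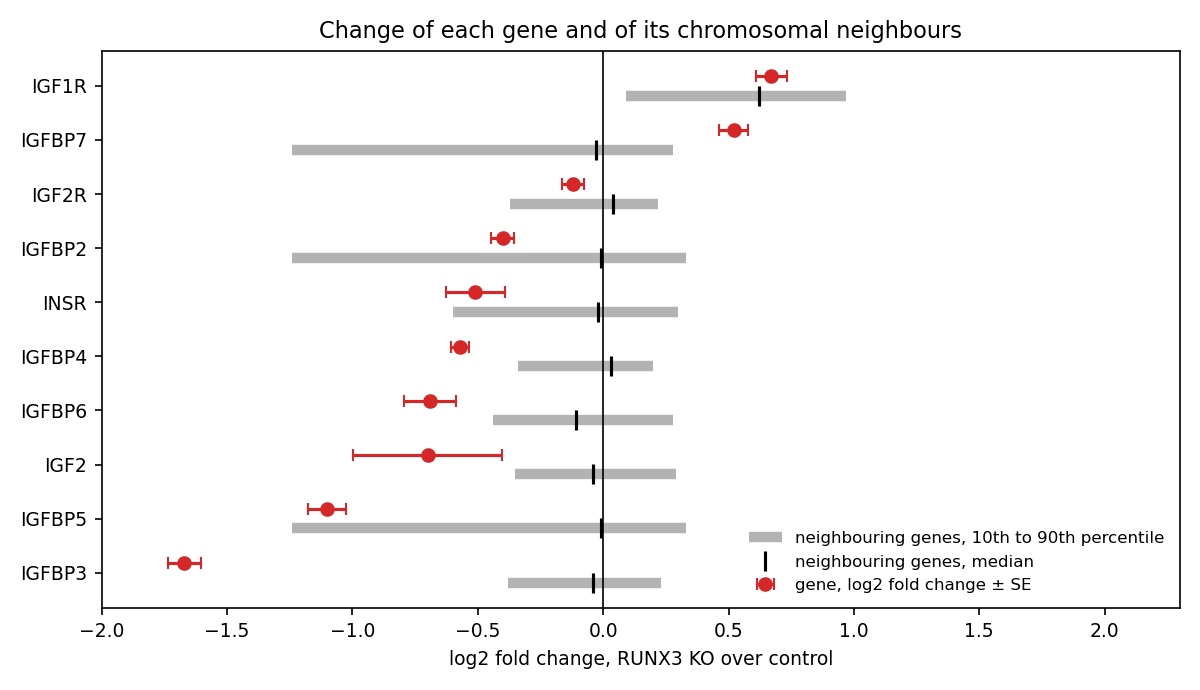
Red points give the log2 fold change of each gene with its SE, grey bars the 10th to 90th percentile of the nearest tested genes on its chromosome and black ticks their median. Only for IGF1R does the median of the neighbours, 0.62, lie far from 0.

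**Figure D4:**
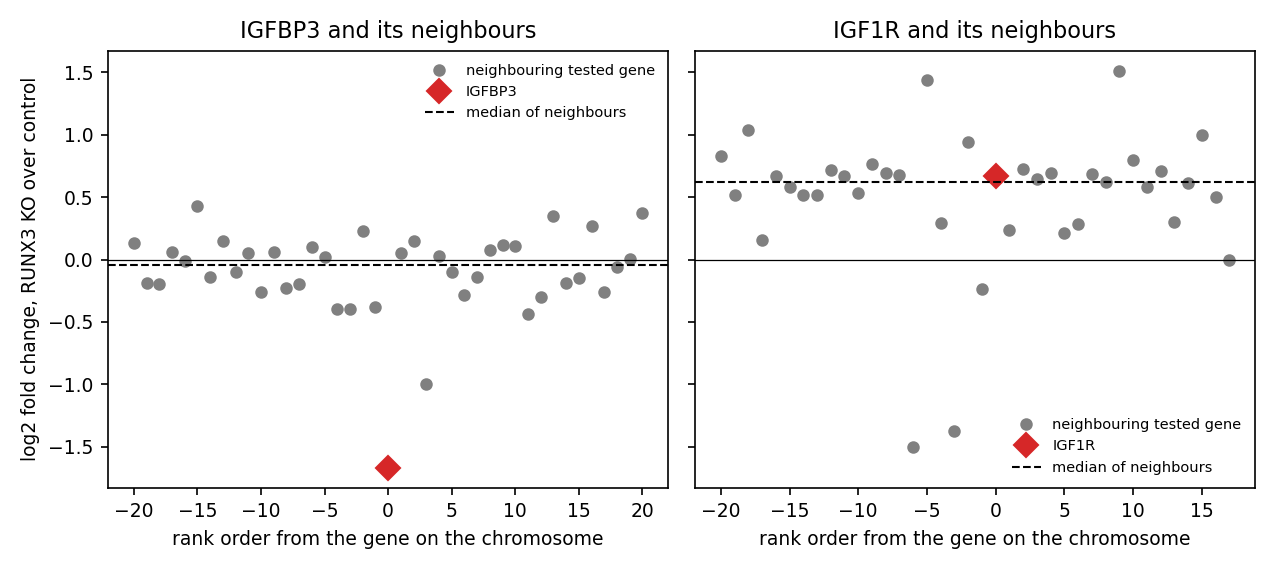
Log2 fold changes of the tested genes around IGFBP3 (left) and IGF1R (right) are drawn in their order along the chromosome, with the gene itself as a red diamond and the median of the neighbours as a dashed line. IGFBP3 at -1.67 lies under all its neighbours, and IGF1R at 0.67 lies among its own.

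Genes that act on the ligand, the binding proteins or the receptors were listed by symbol and described without a test of the lists. Genes named below that did not pass or were not tested were chosen after their values were seen. Of 86 such genes, 64 were tested, of which 21 rose, 13 fell and 30 did not pass, and the median log2 fold change was -0.01. Over all tested genes 24.5% rose and 24.4% fell, with a median of -0.0021. Among 5 tested genes of IGFBP proteolysis, STC1, an inhibitor of the IGFBP4 protease PAPPA, had 88 and 86 counts in control and 11 and 4 in RUNX3 KO libraries. This was a log2 difference of -3.53 (SE 0.287, edgeR adjusted p = 2.96e-19). Its paralog STC2 stood at -0.02 and did not pass. CTSD, a lysosomal protease, changed by -0.11 and HTRA1, a secreted protease, rose by 0.20 on the log2 scale. PAPPA itself had 4 and 7 counts in control and 0 and 2 in RUNX3 KO libraries and was not tested.

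Of 5 tested convertases that can process precursors of growth factors, 2 rose and 2 fell. FURIN rose by 0.52 and PCSK6 by 0.61 on the log2 scale. Both lie among the 37 genes nearest to IGF1R on chromosome 15. PCSK6 stood at -0.01 and FURIN at -0.15 from the median of their own neighbours. PCSK5 went from 58 and 51 counts to 13 and 11. On the log2 scale the difference was -2.18 (SE 0.283, edgeR adjusted p = 1.84e-10), and PCSK4 changed by -0.64.

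Of 5 tested genes for other proteins with an IGFBP domain, 3 rose, 1 fell and KAZALD1 did not pass. NOV, a matricellular protein of the CCN family, had 521 and 527 counts in control and 131 and 115 in RUNX3 KO libraries. This was a log2 difference of -2.1 (SE 0.0941, edgeR adjusted p = 1.47e-35). Its relatives CTGF and CYR61 rose by 0.80 and 0.32 on the log2 scale, and IGFBPL1 rose by 0.29. LRP1, a large endocytic receptor that can bind IGFBP3, changed by -0.69 (SE 0.0483, edgeR adjusted p = 7.33e-23), while TMEM219, another receptor described for IGFBP3, stood at -0.08 and did not pass.

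Genes of mannose 6-phosphate sorting, in which IGF2R also works, went both ways. Of 7 tested, NAGPA, GGA2 and M6PR rose by 0.31, 0.18 and 0.13 on the log2 scale, GGA1 and GNPTAB changed by -0.63 and -0.20, and GNPTG and GGA3 did not pass. The 40 genes nearest to GGA1, on chromosome 22, had a median of -0.49.

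Downstream of the receptors, 22 of 35 tested signalling genes did not pass, 9 rose and 4 fell, with a median of -0.02, where 48.9% of all tested genes passed, 24.5% as higher and 24.4% as lower. SOCS2, a feedback inhibitor of cytokine and growth hormone signalling, had 51 and 25 counts in control and 86 and 124 in RUNX3 KO libraries. Replicates of SOCS2 differed widely, but the groups did not overlap, and on the log2 scale SOCS2 stood higher by 1.45 (SE 0.199, edgeR adjusted p = 1.19e-09). The FOXO transcription factors, which insulin and IGF signalling keep out of the nucleus, went in opposite directions, with FOXO1 at 0.54 and FOXO3 at -0.84. PIK3R3 and PIK3R2, regulatory subunits of phosphoinositide 3-kinase, changed by -0.61 and -0.39, where the neighbourhood of PIK3R2 had a median of -0.33. RICTOR, a subunit of the kinase complex mTORC2, rose by 0.21. The adaptor IRS1 stood at -0.16 and did not pass.

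**Figure D5:**
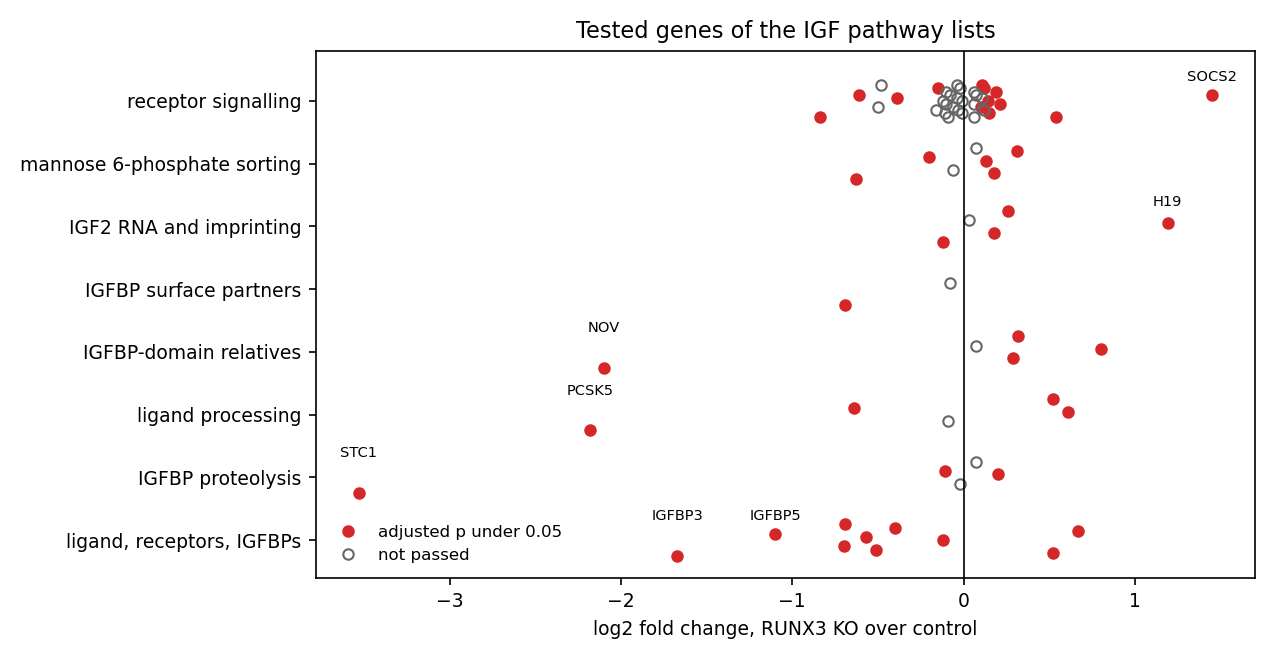
Each point is the log2 fold change of a tested gene, in rows for the 10 genes and for 7 pathway lists, filled red where the adjusted p was under 0.05 and open where not. Names mark genes past 1 or -1, which are IGFBP3, IGFBP5, STC1, PCSK5 and NOV on the lower side and H19 and SOCS2 on the higher.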

How the data were processed

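RNA-seq of 2 control and 2 RUNX3 KO libraries of HGC-27 cells was used. The authors deposited raw counts of reads per gene symbol, not normalized. The paper names STAR and featureCounts with GENCODE genes on hg19, whereas the submitters' processing notes name HISAT2 2.1.0 and HTSeq, and the tables end in the rows that htseq-count writes. Those 5 rows, with 25.9% to 28.1% of the reads, were left out. The kit in the labels is stranded, but whether counting used strand is not given in the sources used here, so overlapping and antisense genes are uncertain.

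R 4.3.3 and edgeR 4.0.16 were used on these counts (filterByExpr, TMM scaling, glmQLFit and glmQLFTest at their defaults, Benjamini-Hochberg adjustment), without a replicate block. SE was derived from each log2 fold change and its F statistic. CPM were scaled by TMM. Of the 25559 symbols, 21717 matched GENCODE genes on GRCh37 by symbol or RefSeq synonym, and 93.9% of tested genes had a position. The steps were tested on simulated counts. All 10 genes were named, and from each other list the 3 largest rises and 3 largest falls past the adjusted p. The genes and lists were chosen with earlier results of these data known. Alternatives were other scalings, filters, DESeq2 1.42.0, limma-voom (limma 3.58.1), a replicate block, each library left out, a 1.5-fold minimum, subtraction of the neighbourhood median, and, added later, another gene length.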

Additional observations from a re-analysis of the deposited data

How the results depend on the processing

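Over 120 values of the 10 genes under 12 alternatives, none reversed, 106 kept their side of the threshold and 14 lost their call, all of them for IGF2, IGF2R and INSR. IGF2 was -0.69 without a filter, -0.70 with DESeq2 and -0.69 with limma-voom, and IGF2R was -0.12 without a filter and with DESeq2. With each library left out, log2 fold changes ranged from -1.68 to -1.66 for IGFBP3, -1.19 to -1.01 for IGFBP5, -0.75 to -0.65 for IGF2, -0.73 to -0.64 for IGFBP6, -0.60 to -0.53 for IGFBP4, -0.58 to -0.43 for INSR, -0.40 to -0.39 for IGFBP2, -0.15 to -0.09 for IGF2R, 0.45 to 0.59 for IGFBP7 and 0.61 to 0.74 for IGF1R. Such fits leave 1 residual degree of freedom and take a lone library to vary like the pair. They called 5 to 7 of the 10 genes lower, with 5 without RUNX3 KO replicate 1 or 2. Subtraction of the neighbourhood median moved IGFBP6 to -0.58 and IGF1R to 0.05. With a minimum fold change of 1.5, 4 of the 10 genes were lower and 1 higher, against 8.58% and 4.82% of all tested genes. Over all tested genes, DESeq2 called 1863 lower and 1829 higher by adjusted p, against 3158 and 3183, and the fits with a library left out 1378 to 2806 lower and 1285 to 2745 higher. With 10 counts required in every library, 298 were lower and 160 higher by the 2-fold criteria, against 520 and 274. Scaling shifted the median of all genes by at most 0.021 in size. The replicate numbers are not said to pair the libraries, and deviations of same-numbered libraries correlated at -0.00366. With a replicate block 2 of the 10 genes were higher and 8 lower by adjusted p, and IGF2 stood at -0.70.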

Other observations

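A pair of pathway genes were near 0 in some or all libraries, and are named here after their values were seen. IRS2, an adaptor of the insulin and IGF receptors, had 0 counts in all 4 libraries, whereas IRS1 had 101 and 84 in control and 93 and 74 in RUNX3 KO libraries. SOCS1, a relative of SOCS2 that was too low to be tested, had 2 and 3 counts in control and 10 and 10 in RUNX3 KO libraries.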
